A study of Homo sapiens with 6 samples.

Results

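The chromatin accessibility of SLFN11-knockout cells after 2 h of camptothecin was compared with that of the same knockout cells in DMSO. Both libraries came from CCRF-CEM, an established human T lymphoblast leukaemia line, and were made by ATAC-seq, in which a transposase inserts sequencing adapters into open chromatin. The treated library received 100 nM camptothecin for 2 h and the control DMSO, the solvent, for a time the labels do not give; both carried the SLFN11 knockout, and the 3 knockout libraries share the code CB45_KO, with no statement of how many clones it stands for. The series also holds a knockout library at 4 h of camptothecin and 3 libraries of SLFN11-positive parent cells (2 h and 4 h of camptothecin, and DMSO), with 1 library in each of 6 groups. No difference below therefore has a replicate check, no p-value is given, and the 95% Wilson intervals cover counting error within a library only.

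The comparison takes each library's treatment from the code in its peak names and in the bracket of the sample titles, CB45_KO_2 for camptothecin 2 h and CB45_KO for DMSO. Each code was deposited under a sample whose title bears another code, in 3 of 3 knockout libraries. The list coded CB45_KO_2 is recorded under DMSO, and the list coded CB45_KO under 4 h of camptothecin. By the records, the same 2 lists compare DMSO with 4 h of camptothecin, so every direction given here for them turns round. The recorded 2 h list is the one coded CB45_KO_4. Set against the recorded DMSO list, it holds 3166 peaks without a counterpart and lacks 5007. The parent lists are shifted in the same way, and below all libraries are named by their codes. SLFN11 itself and the markers of T lymphoblasts were not located in the peaks, so neither the knockout nor the cell type was checked here.

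Camptothecin traps topoisomerase I, the enzyme that relaxes DNA supercoils, on the strand it has nicked, and replication forks that meet the trapped enzyme stall or break. SLFN11 is a protein recruited to stressed forks, where it blocks replication and is known to open the chromatin around them, and cells that lack it go on replicating under the drug. A peak is a stretch of chromatin with more transposase insertions than its surroundings. Regulatory elements such as promoters and enhancers are the usual places for such peaks. Genes at the peaks were not assigned, because the annotation at hand is of another genome build than the peaks (hg19), and no sequence of that build was at hand, so peaks are named by hg19 position, counted from 1.

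Most accessible regions of the knockout cells were called both at 2 h of camptothecin and in DMSO. After merging overlapping entries on chromosomes 1 to 22 and X, the camptothecin list held 20894 peaks over 9.09 Mb and the DMSO list 19289 peaks over 8.20 Mb. Together they formed 23943 regions, of which 15942 (66.6%, interval 66.0 to 67.2%) had a peak of both lists, 4827 a camptothecin peak alone and 3174 a DMSO peak alone. The first group was 23.1% of the camptothecin list (22.5 to 23.7%) and the second 16.5% of the DMSO list (15.9 to 16.98%). The camptothecin list thus held more unmatched peaks than the DMSO list, by 1653, and its total was higher by 0.12 on the log2 scale (0.087 to 0.14). When both lists were cut to their 19289 most significant peaks, 3722 camptothecin peaks and 3644 DMSO peaks had no counterpart, which is close to equal by construction. Of the shared regions, 15651 paired 1 peak of each list.

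The depth of the libraries has to be read from the peak lists. For each peak, the fold enrichment and p given by the authors yield the summit pileup, that is the number of reads or fragments stacked at its highest point, and the local background. The lowest background depends on depth and on read extension. It was 1.37 in the camptothecin library and 1.27 in the DMSO library, a log2 ratio of 0.11. Over all 6 libraries it ran from 1.22 to 1.37. The median summit pileup was 20.0 in the camptothecin list and 19 in the DMSO list, and the lower quartile of the peaks called in 1 list only was 10 reads in either list. The difference in depth has the same direction as the difference in peak number, and its part in that number was not tested. The parent DMSO library stood apart from the other 5, with 14205 peaks against 19167 to 23665.

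Peaks called at 2 h of camptothecin and not in DMSO were small. They had a median width of 207 bp, where camptothecin peaks shared with DMSO had 454 bp, a median summit pileup of 12 against 24, and several summits in 2.86% of cases against 31.9%. DMSO peaks without a camptothecin counterpart looked alike, with a median width of 202 bp against 422 bp for shared DMSO peaks, a median pileup of 11 against 21 and several summits in 2.02% against 28.4%. The peaks of 1 list only thus made up 12.6% of the covered length in the camptothecin list (1.14 Mb) and 8.83% in the DMSO list (0.724 Mb). In significance, 67.3% of the camptothecin-only peaks and 72.0% of the DMSO-only peaks had a -log10 q under 5, where both lists end at 2.

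The share of peaks with no counterpart differed by width in both lists. Of peaks under 200 bp, 60.3% of the camptothecin list (58.7 to 61.9%) and 45.0% of the DMSO list (43.3 to 46.7%) had none. From 300 to below 500 bp the shares were 14.1% (13.2 to 14.96%) and 8.62% (7.93 to 9.38%), and from 500 to below 1000 bp they were 1.83% (1.53 to 2.18%) and 0.822% (0.619 to 1.09%). Wide accessible regions were therefore almost all held in common. Of peaks of at least 1000 bp, 1 of 622 in the camptothecin list and 0 of 484 in the DMSO list lacked a counterpart, where 0 of 484 leaves an upper limit of 0.787% by the Wilson interval.

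**Figure D1:**
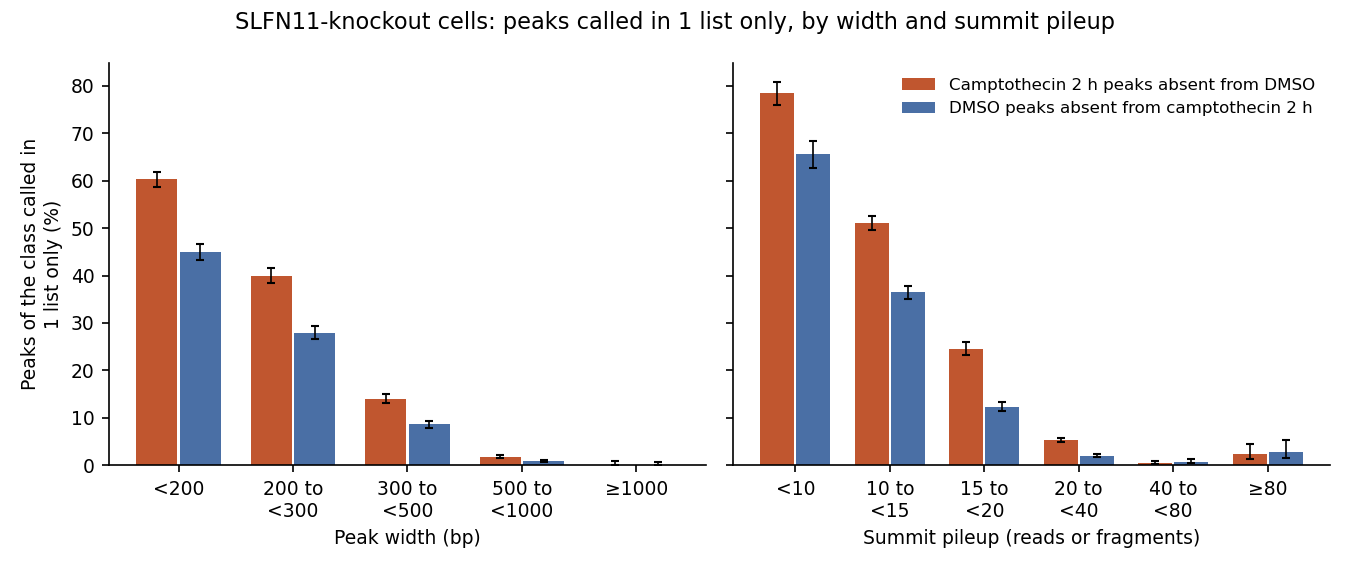
Share of knockout peaks called in 1 of the 2 lists only (y axis, percent of the peaks in the class), by peak width in bp (left) and by summit pileup in reads or fragments (right); bars are the camptothecin 2 h list and the DMSO list, error bars 95% Wilson intervals. The share drops from 60.3% and 45.0% below 200 bp to under 2% from 500 bp on, and is higher in the camptothecin list in each width class.

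Summit pileup ordered the peaks in the same way, except at the top. At 10 to below 15 reads, 51.1% of camptothecin peaks (49.7 to 52.5%) and 36.5% of DMSO peaks (35.1 to 37.8%) had no counterpart, and at 20 to below 40 reads 5.30% (4.83 to 5.83%) and 2.03% (1.73 to 2.38%). From 40 to below 80 reads both lists were below 1%, with 15 of 2670 camptothecin peaks and 14 of 1735 DMSO peaks. At 80 reads or more 10 of 412 camptothecin peaks and 10 of 345 DMSO peaks had none. The high peaks without a counterpart were thus as many in either list.

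Camptothecin-only peaks were more numerous than DMSO-only peaks at each of the 8 levels of significance examined. With all peaks it was 1.52 to 1, with a -log10 q of at least 5 it was 1580 peaks to 888, or 1.78 to 1, and at 7 it was 655 to 288, or 2.27 to 1. At 10 the numbers were 185 and 86, and at 20 they were 16 of 3894 camptothecin peaks and 11 of 2875 DMSO peaks, or 0.411% and 0.383%. The shares at 5 were 10.3% of 15278 and 6.30% of 14096 peaks. The excess at the highest level was thus close to the difference in list length. In these counts the other list was used whole, so a peak counted as absent had no counterpart even at the authors' threshold. Few strong peaks were thus called in 1 list alone.

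**Figure D2:**
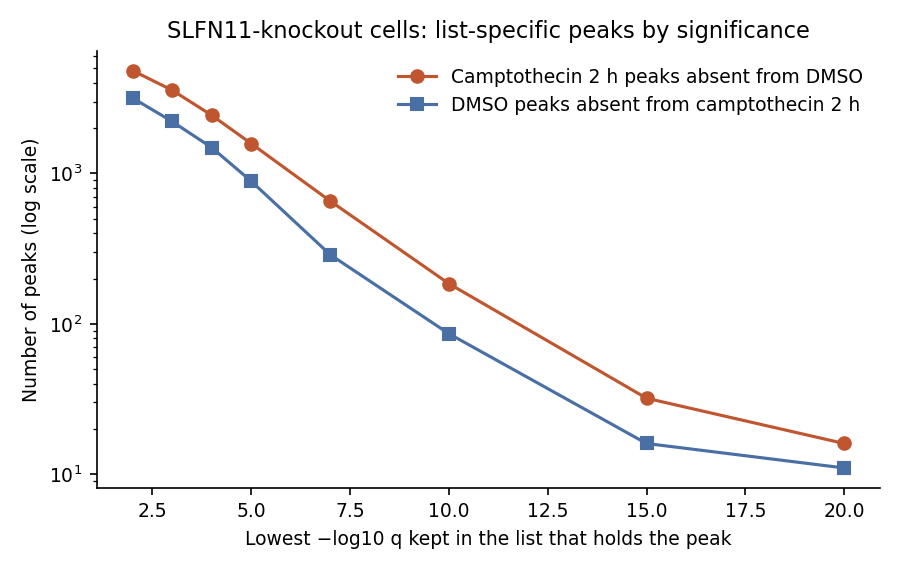
Number of knockout peaks called in 1 list only (y axis, log scale) that reach a given -log10 q in the list that holds them (x axis), for camptothecin 2 h and for DMSO. The camptothecin line lies above the DMSO line at all 8 levels, from 4827 against 3174 peaks at a level of 2 to 16 against 11 at a level of 20.

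At regions called in both lists, summit pileups were slightly higher at 2 h of camptothecin. Over the 15942 shared regions the summits held 584047 reads in the camptothecin library and 520116 in the DMSO library, and the median log2 ratio was 0.17 (quartiles -0.078 and 0.42). The pileup was higher at 2 h in 64.9% of shared regions. Divided by the lowest background of each library, the median became 0.059 and the share 56.6%. The offset in background, 0.11, thus compares with an offset in pileup of 0.17. Pileups more than 2-fold higher at 2 h were found in 163 regions (1.02%) and more than 2-fold lower ones in 17 regions (0.107%). Among 1-to-1 pairs with at least 40 reads in all, these numbers were 93 and 3 of 9415. After division by the background, 87 shared regions were past 2-fold upward and 59 downward.

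The offset was above 0 in all classes of height, width and chromosome except the lowest in height. The median log2 ratio was 0 in the 169 regions of fewer than 20 reads over both summits, of which 44.97% had the higher pileup at 2 h. Both summits had to be high enough to be called, so totals this low leave little room for ratios away from 0. It was 0.11 in regions of 20 to below 40 reads over both summits, 0.20 from 40 to below 80, 0.22 from 80 to below 160 and 0.13 from 160 on. In regions of at least 1000 bp it was 0.21, and in those under 300 bp 0.12. By chromosome it lay between 0.13 on chromosome 16 and 0.21 on chromosomes 2 and 17, and was above 0 on all 23. Shared peaks were also of similar width, with medians of 454 bp at 2 h and 422 bp in DMSO over 1-to-1 pairs, a median width ratio of 1.05, and 57.5% of pairs wider at 2 h. Among the 8900 pairs with 1 summit in each list, the summits lay a median of 39 bp apart.

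Parent cells, which express SLFN11, were set beside the knockout at the same dose and time, by the same title codes. At 1-to-1 shared peaks the median log2 ratio of summit pileup, camptothecin 2 h over DMSO, was 0.17 in knockout cells (quartiles -0.078 and 0.42, 15651 pairs) and 1.18 in parent cells (0.74 and 1.49, 12598 pairs). Divided by the lowest background the medians were 0.059 and 1.10. The same peaks were wider at 2 h in 57.5% of knockout pairs and 90.2% of parent pairs, with median width ratios of 1.05 and 1.54. Summit pileups of shared regions thus lay close together at 2 h and in DMSO in these knockout libraries, and about 2-fold apart in these parent libraries. With 1 library per group the difference between the genotypes cannot be tested, clone and genotype cannot be told apart, and the parent value rests on the parent DMSO library that stands apart.

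**Figure D3:**
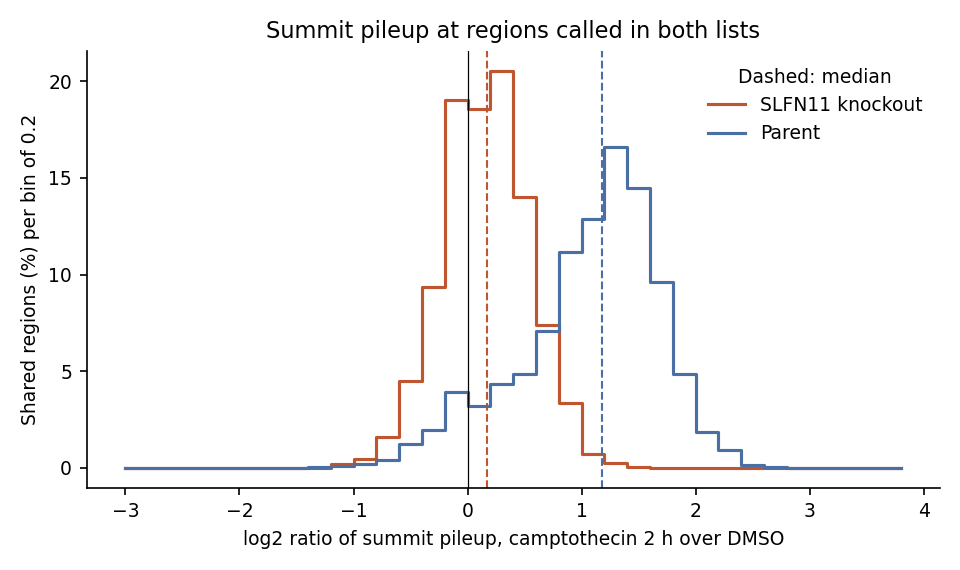
Distribution over 1-to-1 shared regions (y axis, percent of regions per bin of 0.2) of the log2 ratio of summit pileup, camptothecin 2 h over DMSO (x axis), in SLFN11-knockout cells and parent cells; dashed lines are the medians. The knockout distribution centres near 0, with a median of 0.17, and the parent distribution has a median of 1.18.

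The knockout and parent libraries also differed in which peaks found no counterpart. The parent lists held 23665 peaks at 2 h and 14205 in DMSO, the knockout lists 20894 and 19289. The shares by width and pileup below come from these full lists. With 1 library per group the difference cannot be tested between genotypes. Camptothecin peaks absent from DMSO were 23.1% of the knockout list and 45.4% of the parent list, and DMSO peaks absent at 2 h were 16.5% of the knockout list and 7.45% of the parent list. The camptothecin-only share was higher in parent cells in every width class. Under 200 bp it was 60.3% in knockout cells (58.7 to 61.9%) and 86.2% in parent cells (85.1 to 87.3%). Among peaks of 500 to below 1000 bp, 1.83% of knockout camptothecin peaks (1.53 to 2.18%) and 16.8% of parent camptothecin peaks (16.1 to 17.6%) had no DMSO counterpart, and at 40 to below 80 summit reads the shares were 0.562% (0.341 to 0.925%) and 6.85% (6.25 to 7.50%). At 80 reads or more the order turned, with 2.43% (1.32 to 4.41%) in knockout and 1.05% (0.654 to 1.67%) in parent cells. Lists were also cut to equal length within each genotype, to 19289 peaks in knockout and 14205 in parent cells. The camptothecin-only shares were then 19.3% in knockout and 21.7% in parent cells, a smaller gap than in the full lists. The DMSO-only shares were 18.9% in knockout and 20.04% in parent cells. At equal length the 2 shares of a genotype are close to equal by construction. The order of the DMSO-only shares, reversed from the full lists, is therefore no separate result, and the cut lengths differ between genotypes.

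Peaks called in 1 knockout list only were looked up in the other 4 libraries, which had no part in choosing them. The 4827 camptothecin-only peaks were also called in the knockout 4 h library in 34.1% of cases (32.8 to 35.4%), in parent 2 h in 52.8% (51.4 to 54.2%), in parent 4 h in 44.1% (42.7 to 45.5%) and in parent DMSO in 14.6% (13.6 to 15.6%). For the 3174 DMSO-only peaks the shares in the same libraries were 28.7% (27.2 to 30.3%), 45.7% (43.96 to 47.4%), 36.01% (34.4 to 37.7%) and 13.7% (12.5 to 14.9%). Both groups thus met the 4 libraries in the same order, with parent 2 h first and parent DMSO last. All peaks of the camptothecin list kept this order, at 76.0% in knockout 4 h, 84.6% in parent 2 h, 79.6% in parent 4 h and 61.0% in parent DMSO, as did all peaks of the DMSO list, at 78.6%, 86.1%, 81.4% and 64.8%. The camptothecin-only peaks were recovered more often than the DMSO-only peaks in each of the 3 camptothecin libraries, by 5.37 to 8.05 percentage points, and their intervals overlapped in parent DMSO. The camptothecin-only peaks were also the more significant of the groups. Among peaks with a -log10 q under 3 the shares were 20.3% and 20.1% in knockout 4 h. They were 38.03% and 36.4% in parent 2 h, and 30.3% and 27.5% in parent 4 h, with overlapping intervals in all 3 libraries. At a -log10 q of at least 5 the shares were 51.6% and 43.4% in knockout 4 h. They were 67.8% and 59.0% in parent 2 h, and 58.4% and 45.5% in parent 4 h, with intervals apart in all 3 libraries. In parent DMSO the shares at that level were 23.4% and 22.2%, with overlapping intervals. The level of 5 has no upper bound, so it does not match the groups in significance. Of its 1580 camptothecin-only peaks 655 reached a -log10 q of 7, and of its 888 DMSO-only peaks 288. These intervals count peaks within single libraries, so apart or overlapping they are no test of the drug.

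**Figure D4:**
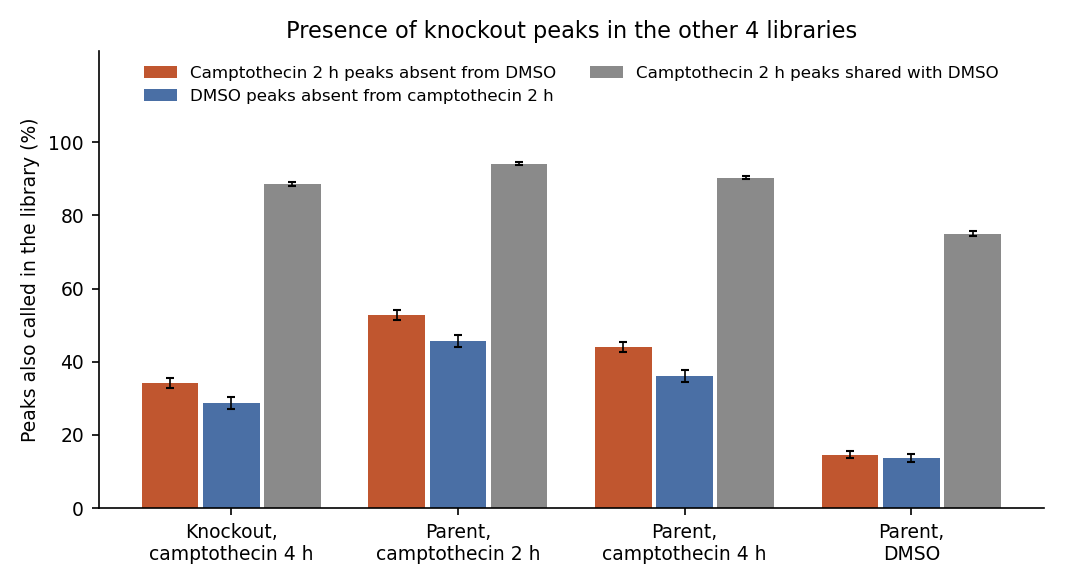
Share of knockout peaks that were also called in each of the other 4 libraries (y axis, percent), for camptothecin 2 h peaks absent from DMSO, DMSO peaks absent from camptothecin 2 h, and camptothecin peaks shared with DMSO; error bars are 95% Wilson intervals. Peaks of 1 list only were found in 13.7 to 52.8% of cases, against 75.01 to 94.1% for shared peaks.

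In all, 69.0% of the camptothecin-only peaks (67.6 to 70.3%) and 63.4% of the DMSO-only peaks (61.7 to 65.0%) were called in at least 1 of the other 4 libraries. The corresponding share of camptothecin peaks shared with DMSO was 98.1%. A majority of the sites that differed between the 2 knockout lists were thus accessible in some other library. All 4 libraries held 261 camptothecin-only peaks (5.41%), which makes knockout DMSO the only library without them. They also held 121 DMSO-only peaks (3.81%), which are lacking in the knockout 2 h library alone. Of all peaks of the camptothecin and DMSO lists, 54.4% and 58.1% were held by all 4. Conversely 1498 camptothecin-only peaks (31.0%) and 1163 DMSO-only peaks (36.6%) were called in no other library. Among all peaks of the 2 lists, 8.63% and 7.63% were called in none of these 4 libraries. Width mattered here too. Of peaks of at least 300 bp, 84.9% of the 977 camptothecin-only and 81.3% of the 545 DMSO-only peaks were found elsewhere, and of peaks under 200 bp 60.5% and 56.1%.

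The same sites were followed through the parent libraries, whose 2 h and DMSO lists are separate from those of the knockout comparison. Of the camptothecin-only knockout peaks, 2001 (41.5%, 40.1 to 42.9%) were called in parent 2 h and not in parent DMSO, and 157 (3.25%, 2.79 to 3.79%) the other way round. Of the DMSO-only knockout peaks, 1157 (36.5%, 34.8 to 38.1%) were called in parent 2 h alone of the 2 parent lists and 141 (4.44%, 3.78 to 5.22%) in parent DMSO alone. Neither parent list held 44.0% of the camptothecin-only and 49.9% of the DMSO-only peaks, the most frequent outcome in either group. Of camptothecin peaks shared with DMSO, 20.4% were called in parent 2 h alone, 1.25% in parent DMSO alone and 73.8% in both. At the 11831 shared knockout regions that both parent lists also held, the median parent log2 ratio was 1.25 where the knockout pileup was at least 2-fold higher at 2 h (190 regions), 1.23 where the knockout log2 ratio was between 0 and 0.5, and 0.89 where it was below -0.5 (416 regions). In the 2 classes between, the parent median was 1.29 at a knockout log2 ratio of 0.5 to below 1 (1961 regions). It was 1.18 at -0.5 to below 0 (2771 regions). Across these regions, which share the same 4 libraries and their depths, Pearson's r of the knockout and parent log2 ratios was 0.13 and Spearman's rho 0.11.

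Camptothecin-only peaks outnumbered DMSO-only peaks on each of the 23 chromosomes, and the log2 ratio of peak numbers ran from 0.06 to 0.22, with an interval above 0 on 7 of them. Camptothecin-only shares were lowest on chromosome 19, at 17.7% (15.5 to 20.1%), and on chromosome 16, at 18.1% (15.6 to 21.0%). They were highest on chromosome 18 at 31.6% (27.3 to 36.4%), on chromosome 21 at 30.4% (25.1 to 36.4%) and on chromosome X at 26.8% (23.7 to 30.2%). DMSO-only shares were likewise lowest on chromosomes 19, at 9.49% (7.77 to 11.5%), and 17, at 11.8% (9.85 to 14.1%), and highest on chromosomes 21, at 22.5% (17.6 to 28.3%), and 13, at 21.0% (17.6 to 24.96%). Intervals excluded the value over all chromosomes on 7 chromosomes for the camptothecin list and on 6 for the DMSO list, with chromosomes 16, 19 and 21 in both sets. Chromosome X, high in the camptothecin list, was at 16.2% (13.6 to 19.3%) in the DMSO list. With a -log10 q of at least 5 in both lists the extremes moved, the camptothecin-only share being highest on chromosome X at 27.6% and lowest on chromosome 13 at 17.01%.

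**Figure D5:**
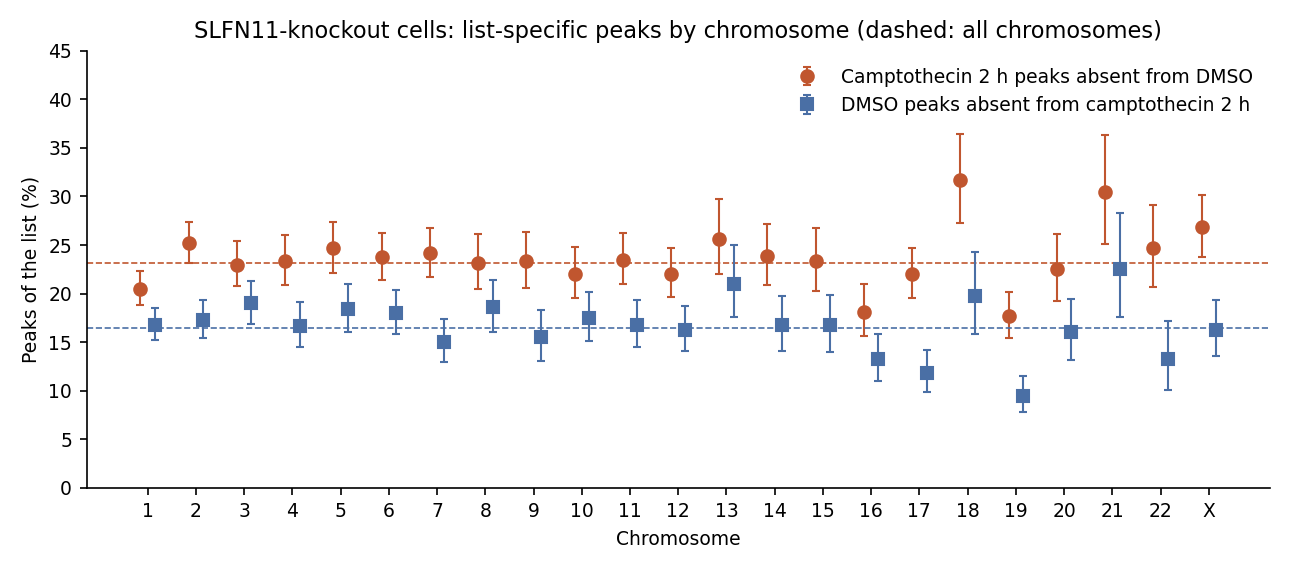
Share of the camptothecin 2 h list without a DMSO counterpart and of the DMSO list without a camptothecin counterpart (y axis, percent) on each chromosome (x axis); bars are 95% Wilson intervals and dashed lines the values over all chromosomes, 23.1% and 16.5%. Camptothecin points lie above DMSO points on all 23 chromosomes, and chromosome 19 is lowest in both.

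The median spacing along the chromosomes was close to that of shared peaks, and the tails were wider. Camptothecin-only peaks lay a median of 33.0 kb from the nearest shared peak of their list and DMSO-only peaks 32.0 kb, and shared peaks lay a median of 32.2 and 31.9 kb from the next shared peak. Within 1000 bp of a shared peak were 7.77% of camptothecin-only and 7.66% of DMSO-only peaks, against 5.88% and 6.21% of the shared peaks of the same lists. Farther than 100 kb were 22.1% and 22.7%, against 18.6% and 18.5%. Peaks of 1 list only were thus more often close to a shared peak and more often far from one. Counted in windows of 1 Mb, 1997 of 2618 windows with any peak held a camptothecin-only peak and 1645 a DMSO-only peak. The windows with most camptothecin-only peaks, looked up after the values were seen, were chromosome 17, 40000001 to 41000000, with 11 camptothecin-only and 3 DMSO-only peaks, and chromosome 14, 91000001 to 92000000, and chromosome 22, 20000001 to 21000000, each with 10 and 2. Most DMSO-only peaks, 9 in each case, lay on chromosome 14, 106000001 to 107000000, and chromosome 4, 49000001 to 50000000, beside 4 and 6 camptothecin-only peaks.

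Single sites show what stands behind these counts. Among camptothecin-only peaks of at least 300 bp, the highest fold enrichment given by the authors' peak caller was 12.1, at chrX:488061-488591, with a pileup of 40 in knockout 2 h. The site was also called in knockout 4 h, parent 2 h and parent DMSO, at pileups of 14, 11 and 10, and in neither knockout DMSO nor parent 4 h. The next was chr7:89699691-89700065, with pileups of 23 at 2 h and 18 at 4 h in knockout cells and no peak in the other 4 libraries. This site was called in both knockout camptothecin libraries and in no parent library.

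The remaining 8 of the 10 highest sites had mixed patterns. At chr17:37607224-37607658 the pileup was 24 in knockout 2 h, 15 in knockout 4 h, 42 in parent 2 h and 38 in parent 4 h, and neither DMSO list held a peak. The fourth site, chr3:147034955-147035498, had 19 reads in knockout 2 h and no peak in any other library. At chr3:6991975-6992563 the pileup was 23 in knockout 2 h, 27 in knockout 4 h, 15 in parent 2 h and 10 in parent DMSO, without a peak in the other 2 lists. Presence in parent DMSO thus varied among these sites.

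The last 5 of the 10 sites had pileups of 18 to 23 in knockout 2 h. At chr3:11348320-11348678 there were 23 reads in knockout 2 h, 17 in knockout 4 h and 12 in parent 4 h. At chr3:105471915-105472217 there were 19 in knockout 2 h, 13 in knockout 4 h, 17 in parent 2 h and 15 in parent 4 h. At chr2:163588824-163589243 there were 18 in knockout 2 h, 21 in knockout 4 h and 10 in parent 2 h. None of these 3 sites had a peak in either DMSO list. At chr2:224466840-224467188 there were 18 reads in knockout 2 h, 24 in parent 2 h and 22 in parent 4 h. At chr6:142393064-142393381 there were 19 in knockout 2 h, 11 in knockout 4 h and 14 in parent DMSO, with no parent camptothecin peak. Of all 10 sites, 3 were called in parent DMSO, 6 in parent 2 h, 4 in parent 4 h and 8 in knockout 4 h. Among all 977 camptothecin-only peaks of at least 300 bp the shares were 24.3%, 71.9%, 61.1% and 51.8% in that order.

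The 5 widest camptothecin-only peaks, of 861 to 1106 bp, all had the pattern of a peak in the 4 camptothecin libraries and in neither DMSO library. The widest, chr20:61733365-61734470, had 23 reads in knockout 2 h, 17 in knockout 4 h, 39 in parent 2 h and 49 in parent 4 h. At chr6:41167978-41168894 the values were 15, 14, 11 and 20. These sites were the widest of the camptothecin-only peaks, so their presence in knockout 2 h and absence from knockout DMSO were fixed by selection. Their pattern over the other 4 libraries was not used to choose them. Their pileups in the knockout were all at or below 24. The parent DMSO list, the shortest, held 61.0% of all knockout camptothecin peaks and 24.3% of the 977 camptothecin-only peaks of at least 300 bp. For those 977 peaks the share was 51.8% in knockout 4 h, 71.9% in parent 2 h and 61.1% in parent 4 h. Of the 977, 31.6% were called in 3 of the other 4 libraries, whichever 3 these were. The 5 widest DMSO-only peaks, of 662 to 733 bp, likewise all had a peak in parent 2 h and in parent 4 h. Most of them, not all, also had one in knockout 4 h and in parent DMSO.

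Of the camptothecin-only peaks that every library other than knockout DMSO held, chr17:78388881-78389319 had the highest fold enrichment among those of at least 300 bp, 7.78. Its pileup was 27 in knockout 2 h, 10 in knockout 4 h, 25 in parent 2 h, 41 in parent 4 h and 15 in parent DMSO. At the next, chr2:163174949-163175578, the values were 23, 20, 26, 21 and 12. Knockout DMSO stands alone in lacking these peaks. The leading peak found in knockout 2 h and nowhere else was chr3:147034955-147035498, 544 bp wide with 19 reads and 8.44-fold enrichment. It was followed by chr7:29325014-29325319, with 22 reads and 7.44-fold enrichment.

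DMSO-only peaks of at least 300 bp were led by chr4:76498730-76499071, with a fold enrichment of 8.82 and 19 reads in knockout DMSO. The libraries other than knockout 2 h all held it, with 13 reads in knockout 4 h, 23 in parent 2 h, 18 in parent 4 h and 10 in parent DMSO. The second, chr1:60746920-60747224, had 19 reads in knockout DMSO, 12 in knockout 4 h and 17 in parent 4 h. At the third, chr1:168489544-168490260, 717 bp wide, there were 20 reads in knockout DMSO, 21 in parent 2 h and 20 in parent 4 h, with no peak in knockout 2 h, knockout 4 h or parent DMSO. These sites thus had no common pattern in the other libraries.

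The next sites were no more uniform. At chr13:100834943-100835425 there were 20 reads in knockout DMSO, 12 in parent 2 h and 8 in parent DMSO. At chr16:59293667-59293985 there were 20 in knockout DMSO, 9 in knockout 4 h, 13 in parent 2 h and 11 in parent 4 h. The sixth site, chr21:46920509-46920872, was lacking in knockout 2 h alone, with 30 reads in knockout DMSO, 14 in knockout 4 h, 11 in parent 2 h, 13 in parent 4 h and 23 in parent DMSO. It had the highest pileup of the first 6 in knockout DMSO. Of the 10 highest DMSO-only sites, 9 were called in parent 2 h, 8 in parent 4 h, 5 in knockout 4 h and 5 in parent DMSO. Among all 545 DMSO-only peaks of at least 300 bp the shares were 65.3%, 49.7%, 42.9% and 23.9% in that order. The leading peak called in knockout DMSO and in no other library was chr6:168962006-168962425, with 16 reads and 7.07-fold enrichment. It is 420 bp wide.

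The shared regions with the largest change in pileup were modest in height. At chr12:38028903-38029139, 237 bp wide, the pileup was 59 at 2 h and 13 in DMSO in knockout cells, a ratio of 4.54. It was 46 in knockout 4 h, 42 in parent 2 h, 13 in parent 4 h and 17 in parent DMSO. Whether repeated or poorly mapped sequence has a part in this narrow region was not tested. At chr12:75905180-75905660 the pileup was 38 at 2 h and 10 in DMSO, and 35 in parent 2 h against 18 in parent DMSO. At chr19:19249191-19249618 it was 45 and 14 in the knockout, a ratio of 3.21, and 60 in parent 2 h against 21 in parent DMSO. The pileup was higher in parent 2 h than in parent DMSO at each of these sites, as it was at 93.4% of all shared regions that both parent lists held. In the other direction, chr11:122614571-122615118 had 13 reads at 2 h and 29 in DMSO, a ratio of 0.448, and chr7:103848121-103848732 had 13 and 28, a ratio of 0.464. In parent cells these sites had 21 against 14 and 36 against 13 reads, at 2 h against DMSO.

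The most significant peaks of 1 list only were narrow and high. In the camptothecin list the first was chr7:61080436-61080673, 238 bp wide, with 157 reads at 2 h over a background of 14.01. The site was called in all 4 other libraries at 123 to 162 reads, and knockout DMSO held no peak overlapping it. In the DMSO list the first was chr2:89868559-89868834, 276 bp wide, with 162 reads over a background of 29.7, and no other library held it. The second was chr4:49094767-49094927, 161 bp wide, with 164 reads, and 115 to 183 reads in the 4 other libraries. Knockout 2 h held no peak overlapping this site. Whether repeated or poorly mapped sequence has a part in them was not tested.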

How the data were processed

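The ATAC-seq peak lists of 6 libraries were used as deposited. MACS2 2.1.2, BWA 0.7.17 and the hg19 build are among the names in the submitters' processing notes, beside Picard 2.9.2, SAMtools 1.8, Trimmomatic 0.39 and Trim Galore 0.6.2. Their settings, read shifting and duplicate handling were not given in the sources used here. The lists deposited by the authors give a score (10 times the -log10 q, truncated), a fold enrichment ratio, and -log10 p and q of the summit; peaks were called per library.

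Libraries were placed by the code in the sample titles, with placement by recorded sample as an alternative. Overlapping entries on chromosomes 1 to 22 and X were merged, keeping the highest values, and lists were compared by an overlap of at least 1 bp. Summit pileup and background were recovered from fold enrichment and p under a Poisson model and came out whole (tolerance 0.02) in 99.95% or more of each list. Pileups are maxima over the peaks of a region. Recovery and overlap were tested on simulated data. Read totals are not known. PCR reads are not independent molecules, so Wilson 95% intervals cover counting error only.

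Named peaks are the highest by fold (at least 300 bp), width, significance or presence in the other libraries, and the shared regions of at least 40 reads with extreme ratios; some or all are given, from the top down. Members and lists were chosen with earlier results of these data known. The planned count of genes near peaks was not made, since no hg19 annotation was at hand. Python 3.11.15, SciPy 1.17.1 and pandas 2.3.3 were used.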

Additional observations from a re-analysis of the deposited data

Results flagged for a closer look

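Outside the chromosomes compared, the mitochondrial genome had 45 entries in the knockout camptothecin 2 h library and 44 in the knockout DMSO library, a difference of 1 entry, and these entries covered 16439 and 16438 bp. They were noted as data left out of the comparison, not for a difference between the 2 libraries. Over all 6 libraries the number of such entries ran from 44 to 49.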

How the results depend on the processing

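No paired analysis was possible because each group has 1 library. Camptothecin-only and DMSO-only peak numbers kept within 1.5 times of 4827 and 3174 with 50% overlap or peaks within 500 bp counted as shared. They also did so when entries were not merged, peaks under 200 bp were left out or lists were cut to equal length. At equal length these numbers were 3722 and 3644, close to equal by construction, against 4827 and 3174 in the full lists. With a -log10 q of at least 5 in both lists, camptothecin-only peaks numbered 3221 and DMSO-only peaks 2023; with that limit on the peak alone, camptothecin-only peaks numbered 1580 and DMSO-only peaks 888. Placed by recorded sample, 2 h against DMSO gave 3166 camptothecin-only and 5007 DMSO-only peaks, a log2 ratio of peak numbers of -0.12, and, as an alternative added after the data were seen, a median log2 pileup ratio of -0.23 over 15502 pairs; these directions are opposite to the main ones. The pileup ratio was 0.20 in pairs of at least 40 reads and 0.059 after division by the background. With a -log10 q of at least 5, chromosome 18 had a camptothecin-only share of 25.8%. With 50% overlap, 64.9% of camptothecin-only and 58.2% of DMSO-only peaks met one of the other 4 libraries. Low pileups limit every call near the threshold.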
